A study of Rattus norvegicus with 4 samples.

Results

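Transcripts of the enzymes that detoxify superoxide, peroxides and reactive electrophiles were examined in soleus, the slow muscle of the rat calf that works in standing. They were taken as all probe sets (groups of oligonucleotide probes that read 1 transcript on an Affymetrix array) whose single annotated symbol starts with Gst, Gpx, Prdx or Txn, other than Txnip, or is Sod1, Sod2, Sod3, Cat, Nqo1, Gclc, Gclm, Gsr or Gss. These are 70 of 8740 probe sets and stand for 37 genes in 9 enzyme classes. A further 3 probe sets annotated to several genes, of which Gsta5 with Gsta2 and Gpx4 are among the names, were counted apart. The arrays compare soleus RNA of female rats moving freely in their cages (2 pools) and of female rats under hindlimb unloading, 10 h on each of 11 days (2 pools). The comparison asks how transcripts of a weight-bearing muscle differ after repeated daily unloading. A pool held RNA from 4 to 5 rats and took 1 array, so a replicate is a pool, p-values measure the spread between pools, and the number of arrays limits the precision. The labels used here name no strain, age or array batch.

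Superoxide dismutases turn superoxide into hydrogen peroxide, which catalase, glutathione peroxidases and peroxiredoxins then reduce. Glutathione, a small thiol made by glutamate-cysteine ligase (Gclc with Gclm) and glutathione synthetase, is kept reduced by glutathione reductase, and thioredoxins are kept reduced by thioredoxin reductases, both with electrons from NADPH. Glutathione S-transferases couple glutathione to electrophiles, and Nqo1 reduces quinones. Many of these genes are known targets of the factor Nrf2 (gene Nfe2l2), which with a small Maf partner binds the antioxidant response element.

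The tissue label was checked against muscle markers. Of the muscle list, 7 genes had a probe set, all were tested and none passed. They are Myh7, Myl2, Tnni1 and Casq2, genes of slow fibres, and Ckm, Acta1 and Actn2, which all skeletal muscle fibres make. Myh7, slow myosin, read 10907.4 and 11198.2 in the control pools and 9534.3 and 10728.4 in the unloaded pools (MAS5 units, linear scale), and the list summed to 46730 and 47360 against 43050 and 48520. Fast-fibre markers differed between the groups, with sums of 8080 and 6644 against 12040 and 11840 and 5 of 8 tested genes higher. No gene of the other lists passed, and their sums follow 1 or a few bright genes. The red blood cell sum was 6829 and 7201 against 7951 and 7697 (4 genes tested), with Hbb and Alas2 higher in both unloaded pools and Hbb-b1 and Slc4a1 overlapping. The smooth muscle sum was 5119 and 5244 against 5272 and 5572 (5 tested), most of it Des, which skeletal muscle also makes. Des and Tagln overlapped between the groups. Acta2, Myh11 and Cnn1 were higher in both unloaded pools (log2 fold changes 0.25, 0.56 and 0.22). The Schwann cell sum was 680.1 and 706.0 against 631.7 and 669.3 (3 tested), which followed Pmp22, while the list's median log2 fold change was 0.11. The endothelial sum was 205.5 and 214.3 against 193.2 and 192.2 (3 tested), and each of its genes overlapped between the groups. The leukocyte, adipocyte and fibroblast sums overlapped between the groups. Of their tested genes, Cd14, Cd4 and Cfd were lower in both unloaded pools, Fabp4 and Dcn were higher in both, and the rest overlapped. The leukocyte marker Ptprc, which was not tested, lay between 4.8 and 22.9 on all arrays. The part of fibre type and of these other cells in the results on the enzymes was not tested. In RNA of a whole muscle, fewer cells of a type and less RNA per cell cannot be told apart.

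At an adjusted p under 0.05, 2 probe sets of these enzymes passed, both lower after unloading, a share near that of all tested probe sets. Nqo1, a quinone reductase, fell 1.91-fold, and 1 of 3 probe sets of the alpha-class transferase Gsta1 fell 1.37-fold. Both calls depended on single arrays, as given with each gene. Of the 70 probe sets, 57 (31 genes) had a mean signal of at least 21.0, the minimum for testing. At an adjusted p under 0.05 (limma, Benjamini-Hochberg over all 5257 tested probe sets), 2 of the 57 were lower, 0 were higher and 55 did not pass. Over all tested probe sets 2.66% were lower and 2.59% higher, so the members' 2 of 57 (3.51%) is near the background. At an unadjusted p under 0.05, 12 were lower and 2 higher, against 10.5% lower and 10.3% higher of all tested probe sets.

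Below that threshold the enzymes leaned to lower signals. Fold changes are differences of log2(signal + 9), unloaded minus control, and folds written without log2 use the same scale, on which dim transcripts show smaller changes than their signals do. The median was -0.15 over the 57 tested probe sets (-0.08 without control pool 2) and 0.00 over all tested probe sets. It was -0.10 with the brightest probe set of each of the 31 genes, and -0.09 over all 70 members without a filter on dim probe sets (-0.01 over all probe sets). Both unloaded pools lay below both control pools for 28 of the 57 (49.1%), against 25.3% of all tested probe sets, and above both for 4 (7.02%), against 25.5%. The member median relative to the control mean was -0.12 in unloaded pool 1 and also -0.12 in unloaded pool 2, and -0.02 and 0.02 in the control pools. Most of these differences were small, with 39 of the 57 within 0.25 of 0 on the log2 scale, and 66.5% of all tested probe sets were within that range too. These members were chosen with earlier results of the same arrays known, and their lean carries no test of its own.

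**Figure D1:**
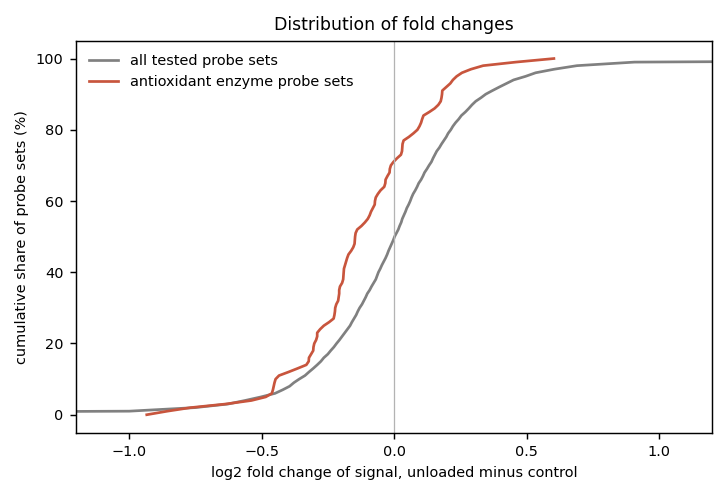
Cumulative share (%) of probe sets, on the vertical axis, up to each log2 fold change of signal (unloaded minus control), on the horizontal axis, for the 57 antioxidant enzyme probe sets and all 5257 tested probe sets. The enzyme curve lies to the left through the middle of the range, with a median of -0.15 against 0.00, and the horizontal axis ends at ±1.2, which leaves out the extremes of all probe sets.

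**Figure D2:**
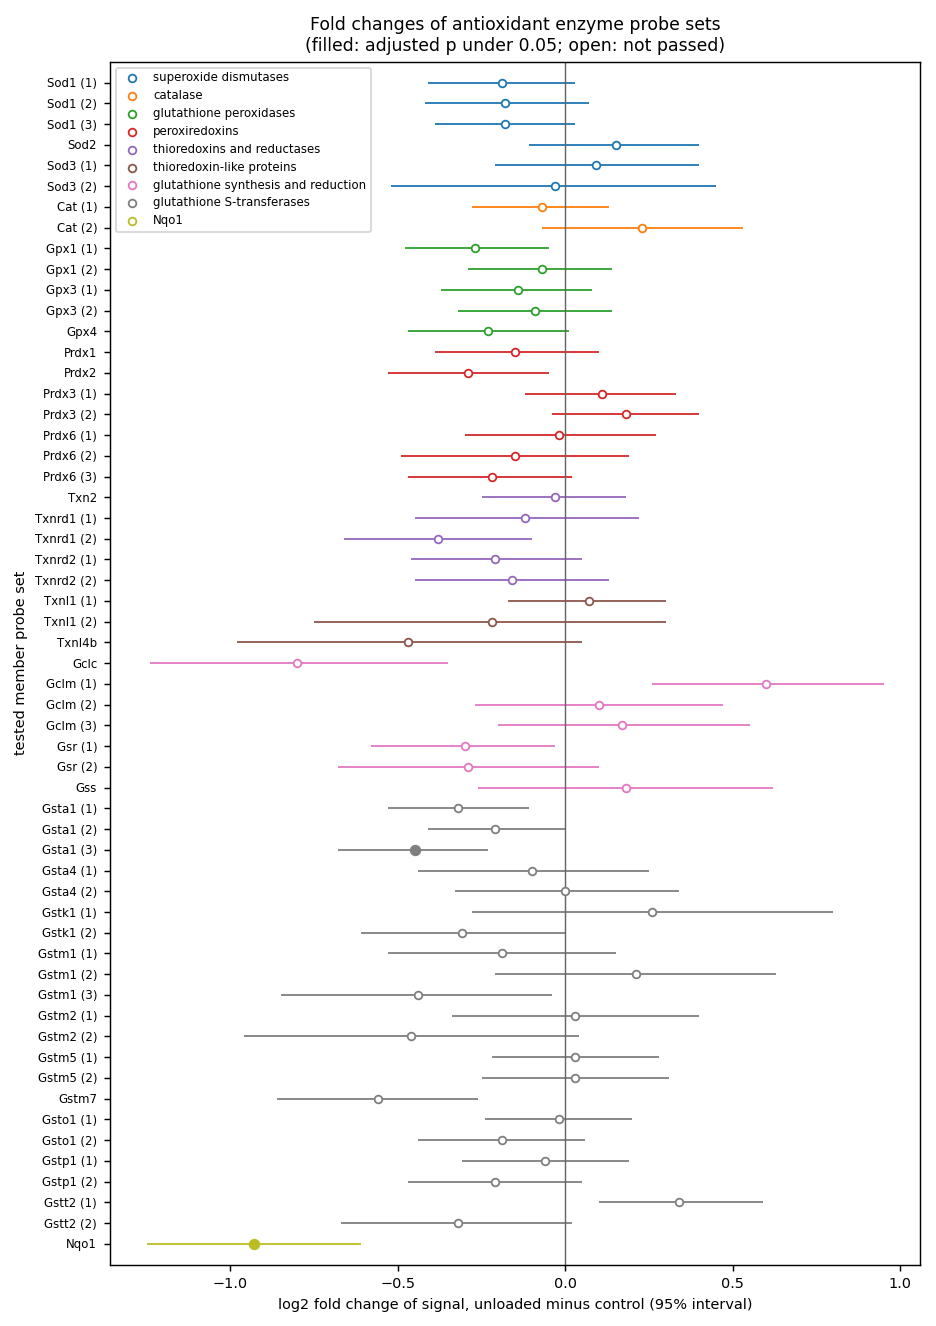
Log2 fold change of signal (unloaded minus control) with its 95% interval from limma for each of the 57 tested probe sets, coloured by enzyme class and numbered within a gene from the brightest to the dimmest. The 2 filled points, Nqo1 and the dimmest Gsta1 probe set, passed at an adjusted p under 0.05, and both lie below 0.

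Superoxide dismutases showed no call, with 6 of 6 probe sets tested and a median of -0.10. That median was -0.01 when control pool 2 was left out and -0.24 when control pool 1 was. Sod1, the copper-zinc enzyme of the cytosol, read 1616.8 and 1819.3 in the control pools and 1466.8 and 1531.1 in the unloaded pools on its brightest probe set (log2 fold change -0.19, SE 0.10, adjusted p = 0.298). On the second it read 936.8 and 1075.5 against 841.8 and 935.5 (-0.18, SE 0.11). Both unloaded pools were below both control pools on all 3 Sod1 probe sets, by 1.13 to 1.14-fold, and none passed. Sod2, the manganese enzyme of mitochondria, had the opposite sign, at 454.5 and 485.3 against 563.1 and 482.6, and its groups overlapped (0.15, SE 0.11, adjusted p = 0.512). The extracellular enzyme Sod3 gave 0.09 (SE 0.13) and -0.03 (SE 0.21) on its 2 probe sets, with overlapping groups. Leaving out unloaded pool 2 turned the first to -0.07, and leaving out control pool 2 turned the second to 0.22.

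Catalase, the peroxisomal enzyme that breaks down hydrogen peroxide without a reducing partner such as glutathione, was read by 2 tested probe sets that differed in sign. The first gave 758.5 and 754.9 in the control pools and 728.7 and 710.1 in the unloaded pools, both lower, by 1.05-fold (log2 fold change -0.07, 95% interval -0.28 to 0.13). The second gave 729.8 and 586.8 against 827.4 and 712.3, with overlapping groups (0.23, 95% interval -0.07 to 0.53). Neither passed, and in the fit of all arrays these intervals leave out a change of catalase signal by 1.5-fold on both. The second moved with single arrays, to 0.38 without control pool 1 and 0.07 without control pool 2. Another probe set, at 11.8 to 15.0, was not tested.

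The glutathione peroxidases, a family of enzymes that reduce peroxides, gave 5 of 5 tested probe sets of 3 genes below 0 (median -0.14). None passed, and 49.7% of all tested probe sets were below 0. Leaving out control pool 2 gave a median of -0.08, unloaded pool 1 of -0.09 and control pool 1 of -0.21, and it was -0.08 with no filter on dim probe sets. Gpx1, the main cytosolic and mitochondrial form, read 5274.9 and 5362.2 against 4143.1 and 4715.8 on its brightest probe set, both unloaded pools lower (-0.27, SE 0.09, adjusted p = 0.162). Its second probe set read 3524.9 and 3520.0 against 3146.2 and 3558.4, with unloaded pool 2 above both controls (-0.07, SE 0.09; 0.01 without unloaded pool 1). Gpx4, which reduces lipid peroxides in membranes, read 1398.0 and 1420.4 against 1107.4 and 1300.9, both lower (-0.23, SE 0.10, adjusted p = 0.257). The secreted form Gpx3 gave -0.14 (SE 0.10) and -0.09 (SE 0.10), also with both unloaded pools lower on both probe sets. Gpx2, Gpx5, Gpx6 and Gpx7 and the dimmest Gpx1 probe set were not tested, with signals of 0.9 to 25.1. Gpx7, at a mean of 20.6, was the member just under the minimum signal, and Txnl1's dimmer probe set, at 24.3, the one just above it.

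Peroxiredoxins, which reduce peroxides through a reactive cysteine, split by sign and gave no call in 7 tested probe sets (median -0.15). The median moved to -0.08 with control pool 1 left out, -0.07 with unloaded pool 1 left out and -0.06 with unloaded pool 2 left out. Prdx2, a cytosolic form, read 1543.6 and 1633.1 against 1201.3 and 1396.8, both lower, by 1.22-fold (-0.29, SE 0.10, adjusted p = 0.163), and gave -0.18 with unloaded pool 1 left out. Prdx3, the form of mitochondria, had positive values on both probe sets, at 1141.9 and 1015.2 against 1189.1 and 1134.2 on the brightest (0.11, SE 0.10, groups overlapping) and at 763.2 and 746.2 against 902.4 and 811.2 on the other (0.18, SE 0.10, both unloaded pools higher). Prdx1, a further cytosolic form, gave -0.15 (SE 0.11) with overlapping groups. The 3 probe sets of Prdx6, which also has phospholipase activity, gave -0.02 (SE 0.12), -0.15 (SE 0.15) and -0.22 (SE 0.11). The first turned to 0.14 without control pool 2 and the second to 0.01 without control pool 1, and the dimmest was below 0 with each array left out.

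The thioredoxin system gave 5 of 5 probe sets of 3 genes below 0, against 49.7% of all tested probe sets, and none passed. The median was -0.16, or -0.07 leaving out control pool 1 and -0.24 leaving out control pool 2. Txn2 was the only thioredoxin among the members. Txn2, the mitochondrial thioredoxin, read 2362.1 and 2330.3 against 2155.9 and 2432.9, with overlapping groups (-0.03, 95% interval -0.25 to 0.18; 0.05 without unloaded pool 1). Txnrd1, the cytosolic thioredoxin reductase, read 220.1 and 192.6 against 160.1 and 152.1 on its dimmer probe set, both lower, by 1.30-fold (-0.38, SE 0.12, adjusted p = 0.127). Its brighter probe set read 456.8 and 357.1 against 404.6 and 342.4, with overlapping groups (-0.12, SE 0.14; 0.06 without control pool 1). Txnrd2, the mitochondrial reductase, gave -0.21 (SE 0.11) and -0.16 (SE 0.12), both unloaded pools lower on both probe sets. Among proteins with a thioredoxin fold, Txnl1 read 435.0 and 411.7 against 465.4 and 422.2 on its brightest probe set (0.07, SE 0.10) and gave -0.22 (SE 0.23) on a dim one. Txnl4b, which takes part in splicing and not in peroxide removal, read 55.2 and 36.4 against 34.7 and 26.0, both lower (-0.47, SE 0.22, adjusted p = 0.288), and -0.22 or -0.72 with control pool 1 or 2 left out.

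**Figure D3:**
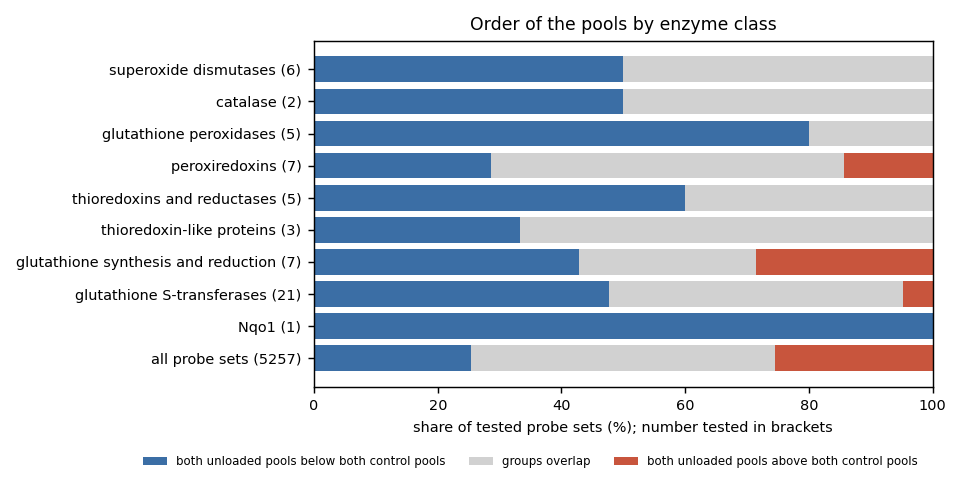
Share (%) of tested probe sets in each enzyme class, on the horizontal axis, for which both unloaded pools lay below both control pools, the groups overlapped, or both unloaded pools lay above both control pools, with the number tested in brackets and all 5257 tested probe sets in the last bar. Glutathione peroxidases had 4 of 5 lower, peroxiredoxins 2 of 7, and glutathione synthesis and reduction 3 of 7 lower and 2 of 7 higher. Of all tested probe sets, 25.3% were lower and 25.5% higher. Most classes hold under 8 probe sets.

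Glutathione synthesis and reduction held the widest range among the classes with several members, from -0.80 to 0.60 over 7 tested probe sets, and no call. The median was 0.10, with 4 of the 7 above 0. It was -0.06 with a stricter filter on dim probe sets and -0.04 with unloaded pool 2 left out. The 2 subunits of glutamate-cysteine ligase, the rate-limiting enzyme of glutathione synthesis, had opposite signs. Gclc, the catalytic subunit, read 55.5 and 42.4 against 22.8 and 25.6, both lower, by 1.74-fold, and missed the threshold (-0.80, SE 0.19, adjusted p = 0.0561). Gclm, the modifier subunit, read 40.7 and 42.5 against 69.1 and 66.5 on its brightest probe set, both higher, by 1.52-fold, and also missed it (0.60, SE 0.15, adjusted p = 0.0605). The 2 other Gclm probe sets gave 0.10 (SE 0.16) with overlapping groups and 0.17 (SE 0.16) with both unloaded pools higher. The difference between the subunits was not tested, and both are dim, so their folds depend on the offset, with -0.50 for Gclc and 0.42 for Gclm at an offset of 35.

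Gsr, glutathione reductase, had lower signals in both unloaded pools on all 3 of its probe sets. The brightest read 144.5 and 143.3 against 110.5 and 119.3 (-0.30, SE 0.12, adjusted p = 0.204) and the second 44.0 and 44.4 against 32.3 and 36.8 (-0.29, SE 0.17). The dimmest read 27.0 and 26.6 against 4.5 and 4.9. Its mean signal of 15.8 put it below the minimum for testing, so it has no tested value. Without a filter on dim probe sets it gave -1.39 (SE 0.17, limma adjusted p = 0.0374), a much larger difference than on the probe sets that were tested. Gss, glutathione synthetase, read 76.3 and 98.1 against 84.0 and 117.2, with overlapping groups (0.18, SE 0.19; -0.04 without unloaded pool 2), and its other probe set was not tested.

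**Figure D4:**
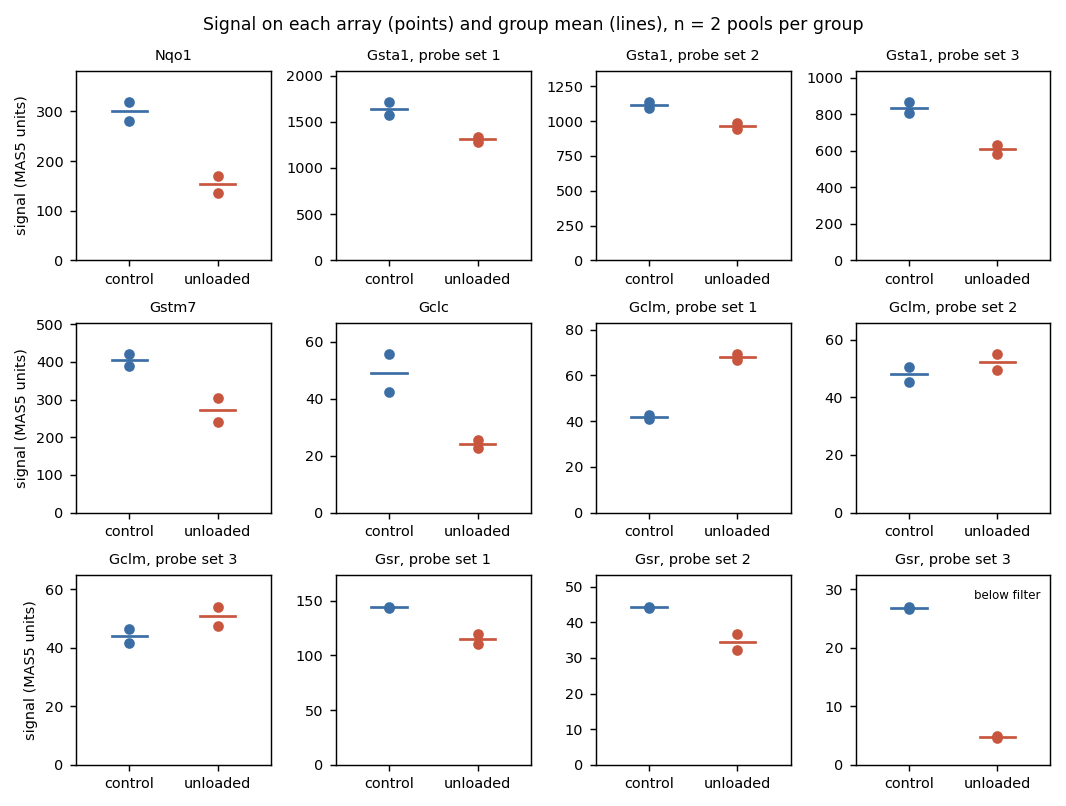
Signal in MAS5 units (linear vertical axis from 0) of Nqo1, Gsta1, Gstm7, Gclc, Gclm and Gsr on each array, with points for the 2 control and 2 unloaded pools and lines for the group means. Nqo1, Gsta1, Gstm7, Gclc and Gsr have both unloaded pools under both control pools, the first Gclm probe set has both above, and the dimmest Gsr probe set lies below the minimum signal for testing.

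Glutathione S-transferases formed the largest class, with 21 of 25 probe sets tested (10 genes), of which 1 was lower, 0 were higher and 20 did not pass (median -0.19). With control pool 2 left out the class median was -0.08, with unloaded pool 2 left out -0.10, and with no filter -0.08. Both unloaded pools lay below both controls for 10 of the 21 and above both for 1, against 25.3% and 25.5% of all tested probe sets. These 10 include the 3 Gsta1 probe sets, so they are not 10 separate genes. Gsta1, of the alpha class, read 864.7 and 804.3 against 581.5 and 633.4 on its dimmest probe set, which fell (log2 fold change -0.45, SE 0.10, adjusted p = 0.0399). The others read 1710.8 and 1571.8 against 1279.8 and 1339.0 (-0.32, SE 0.09, adjusted p = 0.0918) and 1135.4 and 1091.5 against 943.2 and 983.0 (-0.21, SE 0.09, adjusted p = 0.236). All 3 had both unloaded pools lower, and only the dimmest passed. Their identifiers carry the suffix that Affymetrix gives to probe sets shared by a sequence family, so Gsta1 cannot be told apart from its close relatives. The call did not hold without any 1 of the arrays (adjusted p = 0.125 to 0.233), and it held in 3 of 12 alternatives.

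Gstm7, of the mu class, read 420.0 and 389.5 against 241.7 and 303.8, both lower, by 1.48-fold, and missed the threshold (-0.56, SE 0.13, adjusted p = 0.0505). It passed with an offset of 35 (adjusted p = 0.047) and with a stricter filter on dim probe sets (0.0222). Gstm1 gave -0.19 (SE 0.15), 0.21 (SE 0.18) and -0.44 (SE 0.18) on 3 probe sets. The last read 48.0 and 60.2 against 39.5 and 34.9, with both unloaded pools lower. Gstm2 gave 0.03 (SE 0.16) and -0.46 (SE 0.22), the latter -0.77 or -0.14 with control pool 1 or 2 left out. Gstm5 gave 0.03 on both probe sets, with intervals from -0.25 to 0.31 at the widest. The mu-class genes thus had no common sign, and near-identical sequences could split or share signal among them.

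The remaining transferases were read as follows. Gstt2, of the theta class, had 1 probe set with 180.9 and 187.1 against 236.5 and 235.7, both higher (0.34, SE 0.11, adjusted p = 0.122), and another with 112.7 and 128.7 against 105.4 and 84.7, both lower (-0.32, SE 0.15, or -0.18 with unloaded pool 2 left out), so its probe sets contradict each other. Gstk1, of the mitochondrial and peroxisomal kappa class, gave 0.26 (SE 0.23) and -0.31 (SE 0.13). Gstp1, of the pi class, gave -0.06 (SE 0.11) and -0.21 (SE 0.11), and Gsto1, of the omega class, -0.02 (SE 0.09) and -0.19 (SE 0.11). Gsta4, which takes up products of lipid peroxidation, gave -0.10 (SE 0.15) and 0.00 (SE 0.14). Gsta3 and Gstt1 were not tested, at 0.9 to 18.7. Of the 21 genes with several tested probe sets in all classes, 8 had probe sets of differing sign.

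Nqo1, the quinone reductase, had the smallest p among the tested members. It read 281.8 and 318.6 in the control pools and 170.9 and 136.1 in the unloaded pools (300.2 ± 26.0 against 153.5 ± 24.6, SD, n = 2), 1.91-fold lower (log2 fold change -0.93, SE 0.14, limma adjusted p = 0.00962). It was the only member at least 1.5-fold lower in all between-group pairs of arrays among those tested, against 1.67% of all tested probe sets. A second probe set, too dim to be tested, read 28.6 and 18.3 against 15.8 and 3.8, also lower in both unloaded pools. The call held without unloaded pool 1 (adjusted p = 0.0372) and was lost without control pool 1 (0.0598), control pool 2 (0.0879) or unloaded pool 2 (0.0844), where the log2 fold change was -1.02, -0.85 and -0.78. It was also lost without a filter on dim probe sets (0.0538).

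Promoter windows are shown for Nqo1, which passed, and for Gclm and Gstm7, which had opposite signs and hold the motif searched for. The core of the antioxidant response element was searched as TGACNNNGC, on both strands (GCNNNGTCA on the other), in the 250 bases before each RefSeq gene start (build GRCr8). Of the 37 genes, 32 had a window in the table, 36 windows in all. The motif was present in 9 of these windows, of the genes Sod2, Gpx2, Prdx1, Txnrd1, Gclm, Gsta3, Gstm5, Gstm7 and Gstp1, and in 10.1% of 33469 windows of all genes. The windows of Nqo1, Gclm and Gstm7 are shown 5′ to 3′ in the direction of the gene, with matches in capitals.
Nqo1, chr19:52220268-52220517, minus strand: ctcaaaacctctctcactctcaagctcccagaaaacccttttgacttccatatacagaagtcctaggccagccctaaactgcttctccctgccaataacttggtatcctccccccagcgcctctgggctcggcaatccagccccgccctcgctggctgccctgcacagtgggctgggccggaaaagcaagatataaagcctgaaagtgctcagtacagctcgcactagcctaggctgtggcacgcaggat
Gclm, chr2:213031885-213032134, plus strand: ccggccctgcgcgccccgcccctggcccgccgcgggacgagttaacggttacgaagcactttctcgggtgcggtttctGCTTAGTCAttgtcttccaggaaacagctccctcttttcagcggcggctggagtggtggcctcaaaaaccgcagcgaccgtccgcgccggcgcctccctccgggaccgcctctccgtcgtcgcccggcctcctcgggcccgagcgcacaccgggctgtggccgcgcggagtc
Gstm7, chr2:198260320-198260569, minus strand: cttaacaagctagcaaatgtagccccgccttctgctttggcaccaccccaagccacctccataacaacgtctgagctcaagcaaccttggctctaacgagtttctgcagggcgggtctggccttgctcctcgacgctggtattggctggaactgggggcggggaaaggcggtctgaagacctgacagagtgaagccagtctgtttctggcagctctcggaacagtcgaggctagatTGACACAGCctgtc
Gclm holds GCTTAGTCA, Gstm7 holds TGACACAGC close to its start, and the Nqo1 window holds no match, which says only that these letters are not in this window. Prdx1 holds GCTGAGTCA and Gstp1 TGACTCAGC, and neither gene passed. Gsta1, like Nqo1, had no match in its window.

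Among other genes of redox balance, 93 were listed and 51 were tested with 1 probe set each, the brightest. Of the 51, 3 rose, 1 fell and 47 did not pass (median -0.05), against 2.54% higher and 2.16% lower among all 3152 genes tested the same way. Hmox1, heme oxygenase, fell from 111.8 and 105.4 to 50.4 and 66.2 (log2 fold change -0.81, SE 0.16, limma adjusted p = 0.028). Its second probe set gave -0.97 (SE 0.20, limma adjusted p = 0.032). The Hmox1 call was lost with any 1 of the 4 arrays left out, and also without the filter on dim probe sets or without the mean-variance trend. Nfe2l2, the gene of Nrf2, read 95.9 and 87.4 against 99.5 and 92.9, with overlapping groups (0.06, SE 0.13). Its partner Mafk gave -0.38 (SE 0.14) and the redox sensor Park7 -0.15 (SE 0.09).

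The genes that rose were Txnip, which binds and inhibits thioredoxin, Tfrc, the transferrin receptor, and Ucp3, a mitochondrial carrier of the uncoupling protein family. Txnip read 1168.3 and 1271.8 against 2693.2 and 2913.2 (1.19, SE 0.09, limma adjusted p = 3.21e-04). Ucp3 read 158.7 and 141.2 against 353.8 and 396.5 (1.27, SE 0.12, adjusted p = 9.18e-04). Tfrc read 75.8 and 79.9 against 185.6 and 148.9 (1.01, SE 0.14, adjusted p = 0.0079). Not all of these calls held with 1 array left out. None of 13 genes of glutathione turnover and export passed. Oplah, which recycles oxoproline to glutamate, had a mean of 102.0 ± 2.83 against 151.3 ± 10.0 (SD, n = 2), both unloaded pools higher (0.53, SE 0.12, limma adjusted p = 0.0514), and Slc3a2, the heavy chain of the cystine carrier, 760.8 and 851.2 against 455.1 and 615.8, both lower (-0.60, SE 0.15, adjusted p = 0.0601).

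None of 6 enzymes of NADPH supply passed, with Me1, malic enzyme, at -0.20 (SE 0.10) and Tkt, transketolase, at -0.19 (SE 0.17). Dimmer probe sets of Me1 gave -0.03 (SE 0.16), -0.27 (SE 0.11) and -0.29 (SE 0.12). A dimmer probe set of Tkt had the opposite sign, with both unloaded pools higher (0.30, SE 0.20). None of 12 genes of conjugation and carbonyl reduction passed either, with the aldehyde dehydrogenase Aldh2 at -0.30 (SE 0.09) and Por, the electron donor of cytochrome P450 enzymes, at -0.32 (SE 0.10). Of 6 oxidant sources, Xdh, xanthine dehydrogenase, read 154.8 and 154.9 against 202.1 and 203.4, both higher (0.37, SE 0.11, adjusted p = 0.109), and Maoa gave -0.30 (SE 0.11). The selenoproteins Selenow and Selenop gave -0.28 (SE 0.10) and 0.30 (SE 0.13).

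**Figure D5:**
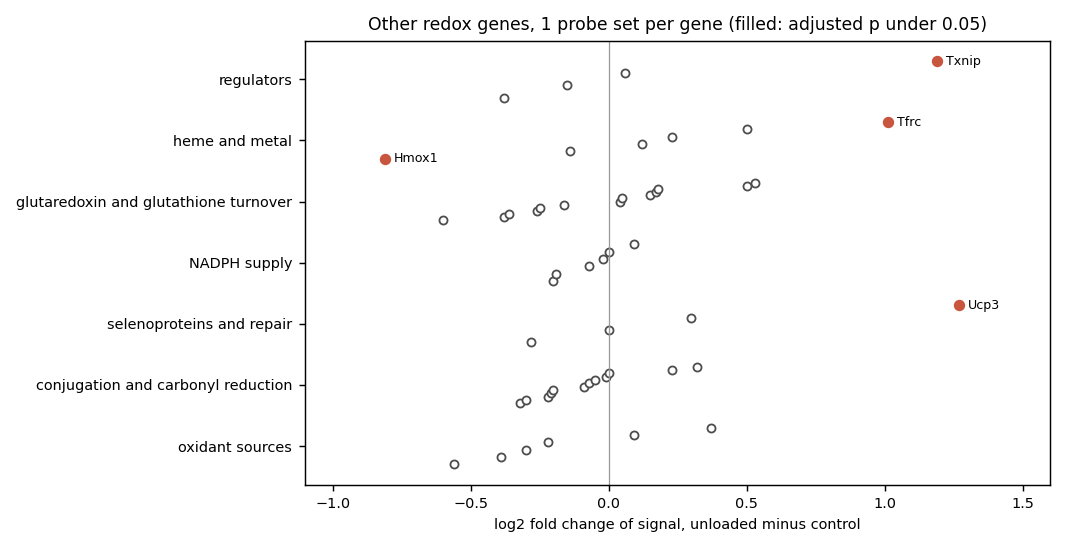
Log2 fold change of signal (unloaded minus control) for 51 other redox genes, 1 probe set each, in 7 groups on the vertical axis, with small vertical offsets that keep points apart. Filled points passed at an adjusted p under 0.05, with Hmox1 below 0 and Txnip, Tfrc and Ucp3 above it, and the other 47 did not pass.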

How the data were processed

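RNA of 4 soleus pools was read on Affymetrix arrays, and the intensity of every probe set, as the authors deposited it in 1 table, was made with MAS5 per the submitters' processing notes (version and settings not given in the sources used here). Of 8799 probe sets, 59 controls were left out. Symbols came from the platform annotation, updated by gene ID to RefSeq (GRCr8): 7006 probe sets had 1 symbol, 308 several and 1426 none. Signals were used as log2(signal + 9), 9 being their 25th percentile. Those averaging 21.0 or more over the arrays (40th percentile) went into limma 3.58.1 in R 4.3.3 (lmFit, eBayes with a mean-variance trend; 2 residual and 5.80 prior degrees of freedom), Benjamini-Hochberg adjusted over all 5257, threshold 0.05. Per-array scaling assumes alike total mRNA signal, and detection calls were not used here. Array trimmed means were 150.2 to 150.3, and log2 signals correlated at 0.987 and 0.988 within groups and 0.973 to 0.974 between them.

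Values on each array were given for probe sets that passed, lay 1.5-fold apart in all pairs, were among the 12 members with the smallest p-value, or were the 2 brightest of a class. Some further probe sets were given with them too. The members and lists were chosen with earlier results of these data known. Alternatives covered normalization, offset, filter, trend, the pool number as a block, each array left out, the threshold and genes in place of probe sets. The fit was tested on simulated data. Promoter windows came from RefSeq (GRCr8). Figures used matplotlib 3.10.9 in Python 3.11.15.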

Additional observations from a re-analysis of the deposited data

How the results depend on the processing

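With 2 pools per group, single calls moved with the settings. Lower member probe sets numbered 2 as reported, 3 (with Gstm7) with an offset of 35 or the filter at the 60th percentile, 1 with quantile normalization, median scaling, no filter or no mean-variance trend, 0 to 1 with 1 array left out (1 without unloaded pool 1), and 5 (with 1 higher) at a threshold of 0.1. The 1 without a filter is the dimmest Gsr probe set, and neither reported call. All tested probe sets gave 136 higher and 140 lower, with 42 and 48 without a filter, 52 and 61 without a trend, 226 and 232 at a threshold of 0.1, and 22 to 43 higher and 38 to 55 lower with 1 array left out. The redox list's 1 lower gene became 0 without a filter or trend and 0 to 0 with 1 array left out, and 2 with the filter at the 60th percentile or a threshold of 0.1. The member median of -0.15 was -0.12 with median scaling, -0.09 without a filter, -0.10 with the brightest probe set per gene and -0.17 to -0.08 with 1 array left out.

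Signs turned on probe sets that did not pass, and the cause was not tested. With 1 array left out the log2 fold change ran -0.07 to 0.25 for Sod3 (1), -0.28 to 0.22 for Sod3 (2), -0.16 to 0.01 for Gpx1 (2), -0.17 to 0.14 for Prdx6 (1), -0.30 to 0.01 for Prdx6 (2), -0.12 to 0.05 for Txn2, -0.29 to 0.06 for Txnrd1 (1), -0.00 to 0.13 for Txnl1 (1), -0.45 to 0.01 for Txnl1 (2). It also ran -0.04 to 0.40 for Gss, -0.03 to 0.03 for Gsta4 (2), -0.13 to 0.66 for Gstk1 (1), -0.03 to 0.45 for Gstm1 (2), -0.11 to 0.17 for Gstm2 (1), -0.05 to 0.11 for Gstm5 (1), -0.10 to 0.15 for Gstm5 (2), -0.08 to 0.04 for Gsto1 (1), -0.17 to 0.05 for Gstp1 (1). Numbers in brackets count a gene's tested probe sets from the brightest. Quantile normalization gave -0.00 for Gsta4 (2) and 0.00 for Gsto1 (1), and median scaling 0.01 for Gsto1 (1) and 0.01 for Prdx6 (1).

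Deviations of same-numbered pools correlated at -0.0438, which gives no sign of pairing by number. With 2 pools per group this is a single value, so it cannot show that the pools were unpaired. With the replicate block on pool number, 1 member probe set was lower, and all tested probe sets gave 78 higher and 87 lower. Dim signals, near the offset, limit Gclc, Gclm and the untested members, and with 2 pools per group small differences were not resolved.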
